A study of Mus musculus with 16 samples.

Results

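The genes of the Wnt pathway's extracellular and core components were examined in cultures labelled as juxtaglomerular (JG) cells after transfection with miR-106b. The set comprised every protein-coding gene of the count table named as a Wnt ligand, a frizzled receptor (Fzd), the co-receptors Lrp5 and Lrp6, a secreted frizzled-related protein (Sfrp), a Dickkopf protein (Dkk), Axin1 or Axin2, or a factor of the TCF/LEF family. This gave 45 of the 46078 genes in the table, namely 19 ligands, 12 receptors and co-receptors, 8 secreted antagonists, 2 Axin genes and 4 TCF/LEF genes. JG cells are the renin-secreting cells of the kidney's afferent arteriole, and the line used here is described as carrying a YFP reporter driven by the renin promoter. All 4 groups were labelled as such cells, but their renin mRNA was not detected and cardiac muscle mRNAs were abundant, as given with the marker lists. They were harvested 48 h after transfection with either a non-mammalian control precursor or miR-106b, and each group held 4 replicate cultures. One pair of groups gave polyA RNA, the mRNA pool of the cell, and the other pair, grown as separate cultures, gave the RNA that came down with an antibody against Ago2 (Ago2-IP), the protein that holds microRNAs on their target mRNAs. The comparison of both RNA kinds addressed which mRNAs gained or lost Ago2 association, relative to their abundance, when miR-106b was added.

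Wnt proteins are secreted lipid-modified ligands that bind frizzled receptors on the cell surface. Together with Lrp5 or Lrp6, a bound frizzled stops the Axin-based complex that marks beta-catenin for destruction, and beta-catenin then enters the nucleus and acts through TCF/LEF factors. Other ligands, Wnt5a and Wnt11 among them, act mainly through branches that do not need beta-catenin, and secreted Sfrp and Dkk proteins hold the ligands or the co-receptors back. In the kidney, Wnt signals are best known for driving nephron formation from the embryonic mesenchyme.

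miR-106b-5p belongs to a family of microRNAs that share their seed, bases 2 to 8, which pairs with target mRNAs. The mature sequence of the transfected microRNA and of its close relatives is shown so that the sites named later can be matched to it, with the seed in capitals (RefSeq, GRCm38.p6).
mmu-miR-106b-5p: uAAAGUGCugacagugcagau
mmu-miR-93-5p: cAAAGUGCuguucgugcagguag
mmu-miR-17-5p: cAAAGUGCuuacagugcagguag
mmu-miR-20a-5p: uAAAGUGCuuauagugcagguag

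Sites for this seed were searched as GCACTTT, which pairs with bases 2 to 8, and as CACTTTA, which pairs with bases 2 to 7 and has an A opposite base 1, in the longest annotated 3′ UTR of each gene on the mRNA strand (GENCODE M21, GRCm38); where the letters overlapped as GCACTTTA, the site was counted once, as an 8-base site. Of the members with a site, Sfrp4, which was uneven between libraries, and Fzd4 and Sfrp1, which rose in polyA RNA, are shown. These were chosen with their values known, and other members with a site, such as Fzd2, also uneven, are not shown. The sites shown are written 5′ to 3′ as DNA with the matched letters in capitals. They lie in Sfrp4 at chr13:19631537-19631544, chr13:19631697-19631703 and chr13:19632011-19632017, in Fzd4 at chr7:89408584-89408590 and chr7:89409045-89409051, and in Sfrp1 at chr8:23449429-23449435, all on the plus strand.
Sfrp4 site a: agtgttctggGCACTTTAgtgggtcaca
Sfrp4 site b: ttgagggagaGCACTTTtattatttta
Sfrp4 site c: tgcacacagaGCACTTTccaatcactg
Fzd4 site a: aaatgttgatCACTTTAgcaggtcaca
Fzd4 site b: ctgttttcttCACTTTAaactaatgac
Sfrp1 site: ctgaggactcCACTTTAtagcctaagc

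A match to bases 2 to 8 was present in 3 of the 31 members that passed the filter on low counts (Fzd3, Fzd8 and Sfrp4), or 9.68%, against 15.3% of 13234 tested genes with an annotated 3′ UTR. With the shorter matches included, 9 of 31 members held a site (29%, against 23% of all such genes). Fzd5, Fzd6 and Axin1, which fell in polyA RNA as described below, held no match in the 3′ UTR searched. Wnt5b, Wnt9a and Wnt11 held none either. Both sites of Fzd3 lie outside the span that the count table gives for that gene. A match is a description of letters and was not tested as a site of binding.

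Of the 45 genes, 31 reached 1 read scaled to library size (CPM, the read count over the total in units of 1e6) in 3 or more replicates of some group and were tested, and 14 did not. The 14 were Wnt1, Wnt3, Wnt3a, Wnt6, Wnt7a, Wnt8a, Wnt8b, Wnt9b, Wnt10a, Wnt16, Fzd10, Dkk1, Dkk4 and Sfrp5, with 4 to 35 counts each summed over all 16 libraries and no more than 9 in any single library. So 9 of 19 ligands, 11 of 12 receptors, 5 of 8 antagonists and both Axin and all 4 TCF/LEF genes were measured. Libraries held 5692958 to 9459585 counts for polyA RNA of control cells and 2815272 to 4554848 after miR-106b, and for Ago2-IP RNA 3501909 to 4616424 in control and 2579086 to 3450269 after miR-106b, so that the control mRNA values are the most precise.

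Levels between genes were compared as normalized CPM per kb of exon. Normalized CPM was scaled within each RNA kind, so polyA and Ago2-IP values set side by side below are not on a joint scale. In polyA control RNA the highest member was Dkk3, a divergent Dickkopf protein, at 91.6 ± 2.08 CPM per kb (SD, n = 4), followed by the receptor Fzd2 at 65.3 ± 2.73, the antagonist Sfrp2 at 33.7 ± 7.02 and the transcriptional repressor Tcf7l1 at 27.8 ± 1.54. Lrp5 came next at 21.8 ± 1.61 and Axin1 at 21.3 ± 0.727, and these neighbours did not differ beyond their spread. Ligand mRNAs were far lower, led by Wnt5a at 3.85 ± 0.562, Wnt2 at 2.98 ± 0.619 and Wnt9a at 2.29 ± 0.410. Among tested members, receptor and antagonist mRNAs were thus by their means above every ligand mRNA, apart from Fzd3, Fzd4, Fzd8, Fzd9 and Dkk2, which lay within or below the ligands' range (Sfrp1, at 4.00 ± 0.749, did not differ from Wnt5a beyond its spread). The exon lengths used for Fzd3, Fzd4, Fzd8 and Wnt10b include stretches outside the span counted for them. Their levels per kb are thus too low, and the place of these frizzleds against the ligands is not read further.

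The identity of the culture was checked against marker lists. Ren1, the renin gene, was listed at 0 counts in all 16 libraries, so the defining marker of the labelled cell type was not detected at this depth. Myh6, a cardiac muscle myosin, ranged from 8371 CPM in polyA control to 40530 CPM in Ago2-IP control. These values go against the label, and the cultures are referred to below by their transfection only. The summed level of 25 cardiac muscle markers, all with counts in every group, ranged from 25060 to 35600 CPM in polyA control, 48970 to 84640 in polyA RNA after miR-106b, and 110000 to 120900 over both Ago2-IP groups. Of the 24 tested, 23 rose in polyA RNA with miR-106b and 0 fell (median log2 fold change 1.23). Endothelial markers (10 of 10 with counts; 339 to 498 CPM in polyA control, 643 to 1168 in polyA miR-106b, 1450 to 1622 in Ago2-IP) and macrophage markers (10 of 10; 262 to 372, 517 to 878 and 1169 to 1274 CPM) had the same order of groups. The juxtaglomerular and mural list (14 or 15 of 16 with counts per group) summed to 3069 to 3401, 4160 to 5148 and 5612 to 6187 CPM. Kidney epithelium markers (10 to 12 of 12 with counts per group, with Nphs1 or Slc12a3 at 0 in some groups) ran the other way, at 722.9 to 902 CPM in polyA control, 559 to 721 in polyA miR-106b and 348 to 379 in Ago2-IP. Fibroblast markers (10 of 10) ranged from 22190 to 23430 CPM in polyA control, 21630 to 32090 in polyA miR-106b and 19970 to 20870 in Ago2-IP. These sums differ between the groups compared below, and the part of cell makeup in the members' values was not tested. In bulk RNA of this kind, fewer cells that express a gene and less of its mRNA per cell cannot be told apart. Over all genes tested, replicate 1 of polyA miR-106b stood apart from the others of its group, with a chi-square per gene between paired libraries (which grows with depth) of 20 to 29.9, against 6.75 to 13.2 among the other 3 and at most 8.72 in polyA control. Replicates 2 and 4 were the most alike of that group.

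In polyA RNA, miR-106b was followed by higher Sfrp1 and Sfrp2, both secreted inhibitors of Wnt ligands, higher Fzd4 and Fzd9 and higher Wnt5b, Wnt9a, Wnt11 and Axin2, and by lower Fzd5, Fzd6 and Axin1. That is 11 of 31 members past an adjusted p of 0.05 (edgeR's quasi-likelihood test, adjusted by Benjamini-Hochberg over 14897 genes), 8 higher and 3 lower. By edgeR's likelihood ratio test it was 8 and 7, with no share of all genes under that test beside it. Those 7 hold Wnt7b, which passed the filter on low counts through polyA control alone, where it is high, so this count is read no further. By the quasi-likelihood test the background was 40.5% of all genes called, 19% higher and 21.5% lower, against 35.5% of members called, 25.8% higher and 9.68% lower. The share of members called was thus near that of all genes. The 11 hold Wnt5b, named for a fall of the Ago2:polyA ratio that these libraries enter, and its call is read no further. The median log2 fold change was 0.20 over the 31 members and -0.05 over all genes tested. The libraries of the 2 transfections did not overlap for 10 members (32.3%), against 38.3% of all genes. The 10 also hold Wnt7b, so their count is read no further. Without replicate 1 of polyA miR-106b, 14 members were called, 7 higher and 7 lower. Without polyA control replicate 2 or 3 it was 7, 5 higher and 2 lower in each. The share of all genes called in these fits without 1 library is not given, so their counts are not read as a change of the members.

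**Figure D1:**
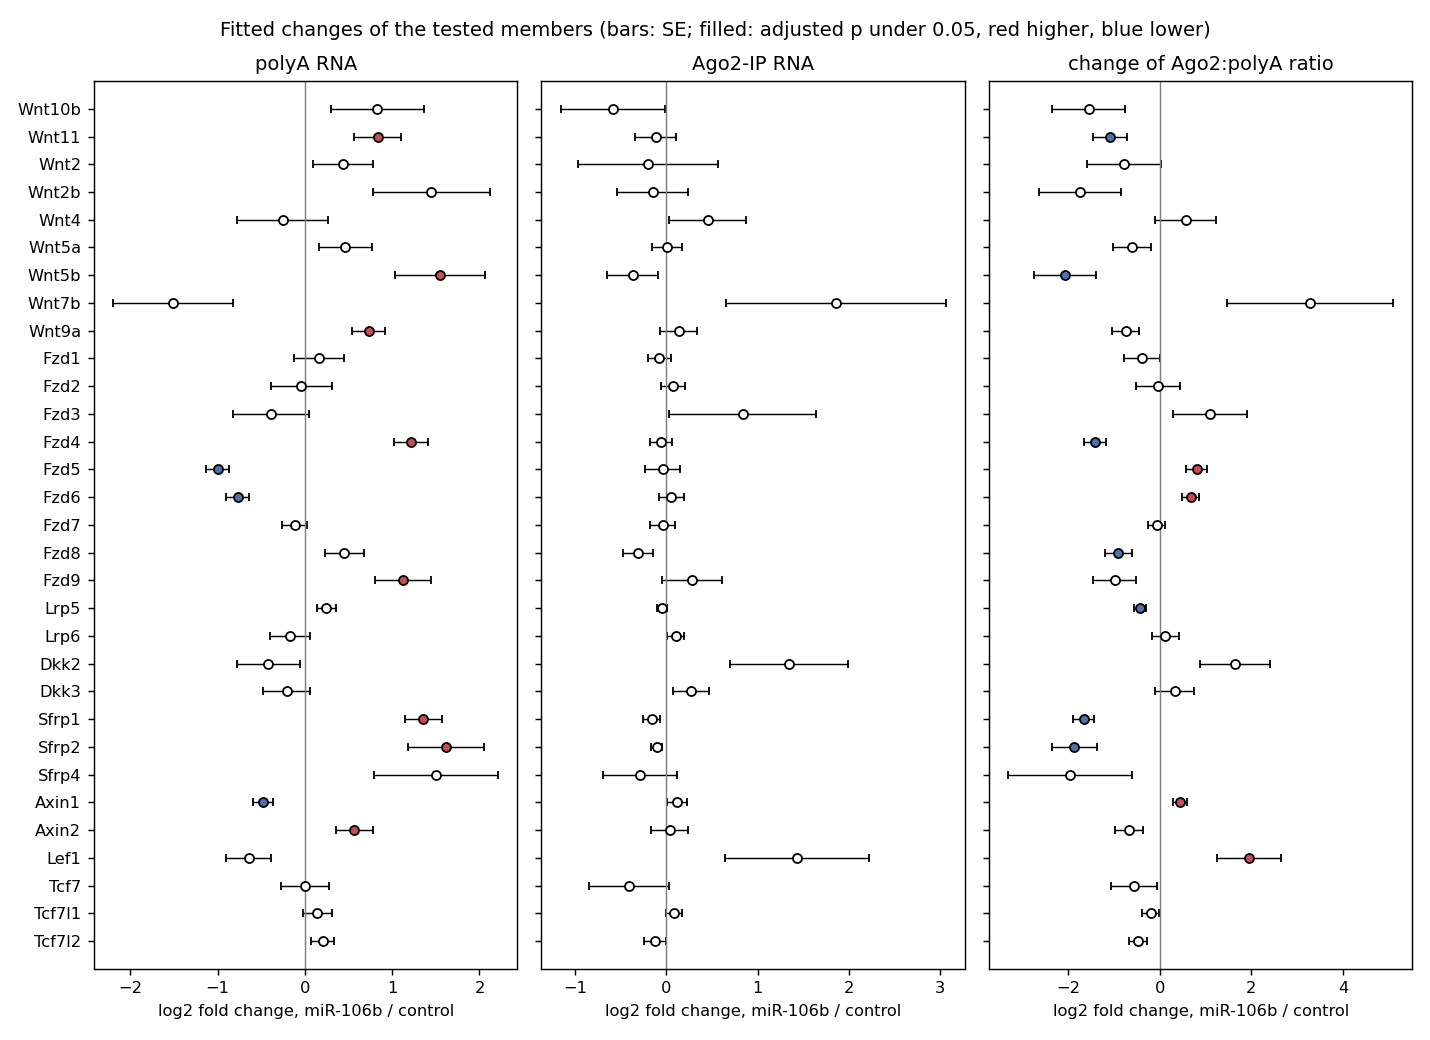
Fitted log2 fold change, miR-106b over control, of the 31 tested members (rows) in polyA RNA, in Ago2-IP RNA and for the change of the Ago2:polyA ratio; points are fitted values, bars are standard errors and filled points have an adjusted p under 0.05, red for higher and blue for lower. Filled points appear in the polyA and ratio panels, 11 in each, and in none of the Ago2-IP rows.

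Among the ligands, Wnt5b (chr6:119432531-119544347, strand -), a ligand of the branches without beta-catenin, was measured at 4.73, 5.23, 5.54 and 5.76 normalized CPM in the control polyA libraries and at 29.7, 4.54, 6.33 and 21.5 in the miR-106b libraries 1 to 4. Replicates 1 and 4 lay well above every control, while replicates 2 and 3 lay beside the controls, so the groups overlapped. The fitted log2 fold change was 1.55 ± 0.51 (SE), and 1.009 to 1.86 over the 8 fits without 1 library. These libraries enter the fall of the Ago2:polyA ratio for which Wnt5b was named, so the values are a description with no test. In Ago2-IP RNA, Wnt5b stood at 6.54, 9.49, 5.91 and 9.17 in control and 6.20, 9.05, 3.87 and 4.95 with miR-106b, groups that overlapped.

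Wnt9a (chr11:59306928-59333552, strand +) rose in every miR-106b library, from 9.31, 8.17, 6.58 and 6.46 CPM in control polyA RNA to 13.6, 10.9, 12.4 and 14.1, with no overlap. Its log2 fold change was 0.73 ± 0.19 (adjusted p = 0.00825, edgeR), and it passed the threshold with any single polyA library left out. Ago2-IP values were 12.8, 14.0, 6.99 and 13.5 in control and 10.8, 12, 13.5 and 15.4 with miR-106b. Apart from control replicate 3, the lowest, all of these lay above every control polyA value.

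Wnt11 (chr7:98835112-98855195, strand +), which acts in planar cell polarity, went from 3.95, 3.04, 2.84 and 3.14 to 4.69, 7.21, 4.13 and 7.40 CPM in polyA RNA, again without overlap. The log2 fold change of 0.83 ± 0.27 had an adjusted p of 0.0265 by edgeR, which became 0.0536, 0.0524 and 0.0502 without replicates 2, 3 and 4 of control and 0.0867 and 0.0784 without replicates 2 and 4 of miR-106b, and 0.0527 with the replicate block. In Ago2-IP RNA it was 9.39, 10.9, 9.67 and 12.4 in control and 9.30, 5.84, 11.3 and 12.8 after miR-106b, above all control polyA values. Exons of another gene share 8.80% of its exon bases, and the libraries do not keep strand.

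Wnt5a (chr14:28504750-28527447, strand +), the most abundant ligand by CPM, had 30.6, 27.4, 26.3 and 36.1 CPM in control polyA RNA and 68.6, 21.9, 27.3 and 47.4 with miR-106b. Replicates 1 and 4 were again the high libraries, and the log2 fold change of 0.46 ± 0.30 did not pass the test (adjusted p = 0.253, edgeR; 0.0403 with no filter on low counts). Its Ago2-IP values were 21.6, 17.0, 18.8 and 27.1 and 24.4, 24.5, 22.6 and 14.5, which overlap. The 5 other ligands tested, Wnt2, Wnt2b, Wnt4, Wnt7b and Wnt10b, had fitted log2 fold changes between -1.51 (Wnt7b) and 1.45 (Wnt2b) in polyA RNA and none passed, although the adjusted p of Wnt2 was 0.0449 without replicate 2 of miR-106b.

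Several members split the miR-106b polyA libraries in the same way, with replicates 1 and 4 on one side and 2 and 3 on the other; these were picked after their values were seen, and the split is not that of all genes, where replicates 2 and 4 were the most alike. Sfrp4, a secreted antagonist and the member with 3 seed matches shown above, had 38.2, 37.0, 35.6 and 45.9 CPM in control and 286, 21.1, 36.6 and 96.3 in miR-106b polyA RNA. Its log2 fold change of 1.5 ± 0.71 did not pass (adjusted p = 0.131, edgeR), and was 0.42 to 1.85 over the fits without 1 library, with an adjusted p of 0.0401 without replicate 2 of miR-106b. Wnt2b was at 3.63, 5.13, 2.54 and 4.36 and 25.9, 4.27, 1.65 and 10.4 CPM and did not pass (adjusted p = 0.115, edgeR; log2 fold change 0.44 to 1.81 without 1 library, with an adjusted p of 0.01 without replicate 3 of miR-106b; 0.0376 by DESeq2's Wald test and 0.0301 with all 16 libraries in a single fit). Wnt7b was at 5.52, 5.23, 5.99 and 9.60 and 0, 4.00, 4.96 and 0. Wnt7b, an epithelial ligand of the developing kidney, thus had no count in replicates 1 and 4, where 3 counts would be 0.659 and 1.07 CPM, and its fall missed the threshold (adjusted p = 0.104, edgeR), which it passed at 0.027 without replicate 3 of miR-106b, at 0.0454 with no filter on low counts and at 0.00942 by edgeR's likelihood ratio test. It passed the filter on low counts through polyA control alone, so this fall rests on the group in which it is high. In miR-106b polyA replicates 1 to 4, the cardiac marker sum was 48970, 84640, 61030 and 81900 CPM and the fibroblast sum 32090, 21920, 21630 and 23150. The endothelial sum was 643, 1168, 832 and 1093 CPM and the macrophage sum 517, 878, 670.5 and 844. The juxtaglomerular and mural sum was 4226, 5002, 4160 and 5148 CPM and the kidney epithelium sum 676, 559, 721 and 712. The part of cell makeup in the members' split was not tested.

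**Figure D2:**
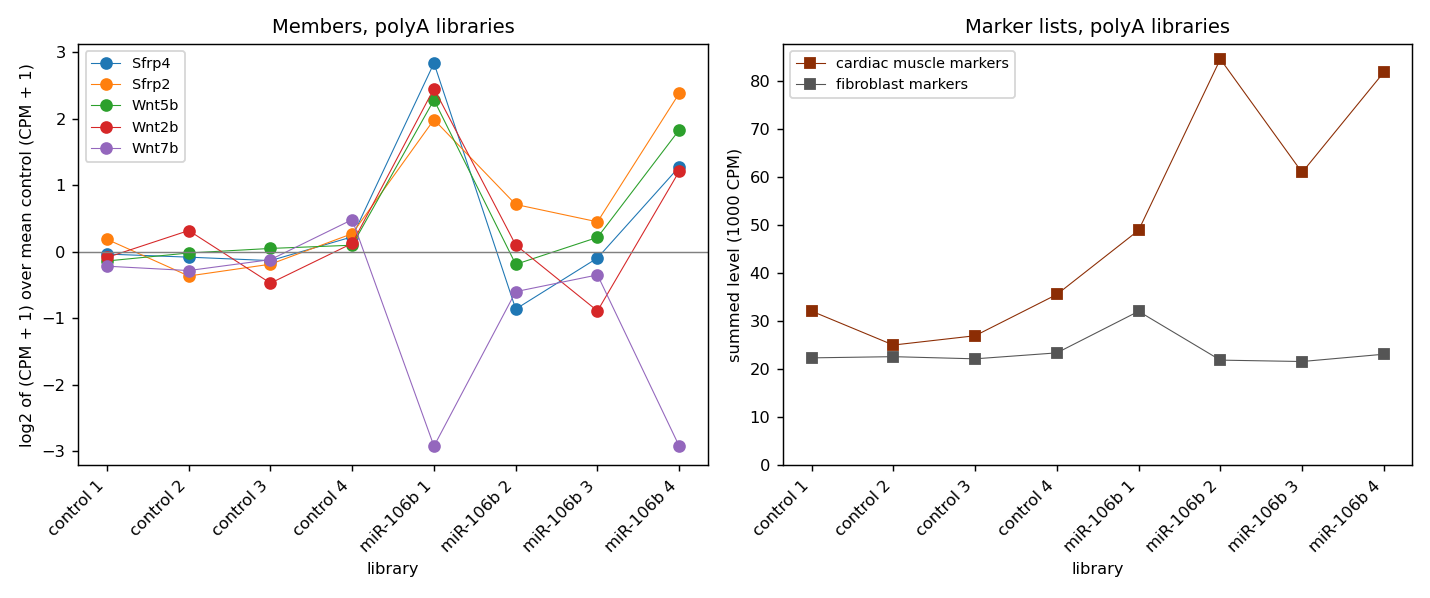
Left, log2 of normalized CPM plus 1 over the mean of control libraries for 5 members in each polyA library; right, summed CPM of the cardiac muscle and fibroblast markers in the same libraries. Sfrp4, Sfrp2, Wnt5b and Wnt2b are highest and Wnt7b lowest in miR-106b replicates 1 and 4. The cardiac sum is highest in replicates 2 and 4.

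Among the receptors, Fzd5 (chr1:64730558-64737751, strand -) fell in every miR-106b library. Its polyA values were 43.2, 46.3, 42.6 and 40.5 CPM in control and 19.7, 21.1, 27.0 and 18.5 with miR-106b, with no overlap. The level fell 2.0-fold (log2 fold change -1.0 ± 0.14, adjusted p = 0.000682, edgeR). In Ago2-IP RNA it was 11.4, 11.2, 14.2 and 14.0 and 12.4, 15.5, 13.2 and 8.44, lower than in either polyA group and overlapping between transfections. Exons of another gene cover 17.8% of its exon bases, whose reads cannot be told apart without strand.

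Fzd6 (chr15:39006280-39038186, strand +), a receptor of planar cell polarity, fell likewise from 71.5, 67.5, 70.8 and 67.4 to 41.3, 40.3, 49.3 and 31.1 CPM in polyA RNA. The log2 fold change was -0.77 ± 0.13 (adjusted p = 0.000902, edgeR), with no overlap of the groups. Ago2-IP libraries held 27.0, 27.9, 27.7 and 25.8 CPM in control and 32.9, 26.8, 30.9 and 22.4 with miR-106b.

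Fzd4 (chr7:89404366-89410110, strand +), which also binds the non-Wnt ligand norrin, rose from 12.5, 9.95, 12.4 and 10.5 to 20.8, 34.7, 20.7 and 29.6 CPM, 2.33-fold, with every miR-106b library above the controls (log2 fold change 1.22 ± 0.19, adjusted p = 0.000693, edgeR). The 3′ UTR of this riser holds both of the shorter seed matches shown above. Its Ago2-IP levels were 45, 44.4, 34.1 and 36.0 in control and 48.8, 30.3, 40.3 and 34.6 with miR-106b, higher than any control polyA value.

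Fzd9 (chr5:135248938-135251230, strand -) was a low receptor mRNA that rose from 1.89, 2.09, 2.09 and 1.92 to 6.48, 3.74, 2.75 and 4.44 CPM (log2 fold change 1.12 ± 0.32, adjusted p = 0.013, edgeR). The groups did not overlap. Its Ago2-IP values were 6.54, 5.31, 3.76 and 2.84 and 4.26, 4.67, 4.51 and 8.44, with the miR-106b replicate 4 apart from the others. The calls of Fzd4, Fzd5, Fzd6 and Fzd9 held with any 1 polyA library left out.

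Lrp5 (chr19:3584828-3686564, strand -), co-receptor of the beta-catenin branch, had the highest mean CPM of the receptors over all 16 libraries, though in polyA control it lay below Fzd2. It stood at 203, 216, 197 and 233 CPM in control polyA RNA and at 279, 252, 218 and 257 with miR-106b. The log2 fold change of 0.25 ± 0.11 did not pass (adjusted p = 0.0927, edgeR), but the adjusted p was 0.04 and 0.0392 without replicates 1 and 3 of miR-106b, 0.0344 with DESeq2 size factors, 0.0111 by DESeq2's Wald test and 0.00217 with all 16 libraries in a single fit. Ago2-IP values were 257, 256, 238 and 236 and 231, 236, 222 and 264. The 6 remaining receptors tested, Fzd1, Fzd2, Fzd3, Fzd7, Fzd8 and Lrp6, had log2 fold changes between -0.39 (Fzd3) and 0.45 (Fzd8) and did not pass, although Fzd8 had adjusted p values of 0.0307 with all genes kept whatever their counts, 0.0179 when 1 fit held all 16 libraries and 0.0235 without replicate 2 of miR-106b. For Fzd2, at 241, 241, 250.0 and 226 CPM in control, the miR-106b libraries spread from 109 to 428, with replicate 1 the highest, and Lrp6 spread likewise from 75.3 to 191 around controls of 129 to 134. Without miR-106b replicate 1, both passed as lower, with adjusted p values of 0.042 (Fzd2) and 0.00461 (Lrp6), and Lrp6 also did by edgeR's likelihood ratio test (0.0361).

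The makeup of the frizzled mRNAs was described as the share of each in the summed frizzled CPM per kb. Fzd2 made up 53.1% ± 0.908 (SD, n = 4) in polyA control and 51.3% ± 8.67 after miR-106b, but in Ago2-IP RNA 24.5% ± 3.86 in control and 25.9% ± 3.95 after miR-106b. Fzd4 held 1.37% ± 0.141 of the frizzled polyA RNA in control and 3.97% ± 2.25 after miR-106b, and its Ago2-IP shares were 13.3% ± 2.30 and 12.8% ± 2.26. Fzd5 went from 5.07% ± 0.275 to 3.06% ± 1.36 between the polyA groups. These shares add to a fixed total within a library and carry no test. As the exon lengths of Fzd3, Fzd4 and Fzd8 reach beyond the span counted, their shares are too low and that of Fzd2 too high.

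**Figure D3:**
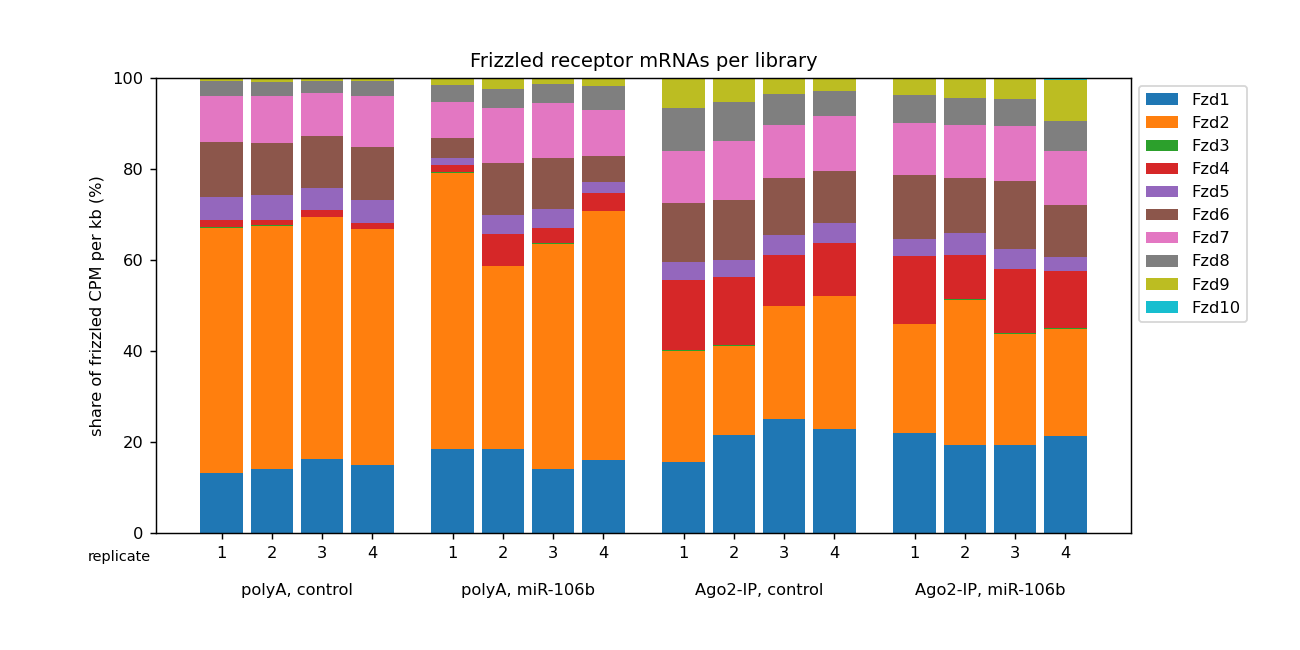
Share (%) of each frizzled mRNA in the summed frizzled CPM per kb, for replicates 1 to 4 of each group; colours stand for genes. Fzd2 takes most of each polyA control bar, between 51.8% and 53.8%, and a smaller share of each Ago2-IP bar.

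Of the secreted antagonists, Sfrp1 (chr8:23411502-23449632, strand +) rose in every miR-106b library. It stood at 16.6, 15.8, 15.3 and 22.3 CPM in control polyA RNA and 42.0, 38.7, 32.8 and 66.6 with miR-106b, without overlap. The rise was 2.56-fold (log2 fold change 1.36 ± 0.21, adjusted p = 0.000682, edgeR). In Ago2-IP RNA, Sfrp1 was at 74.8, 58.1, 59.1 and 66.2 and 57.3, 59.5, 50.6 and 63.1, which overlap and lie above every control polyA value.

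Sfrp2 (chr3:83766321-83774316, strand +) had 82.7, 56.1, 63.6 and 87.8 CPM in control and 290.3, 119, 99.4 and 382 in miR-106b polyA RNA. All miR-106b libraries exceeded all controls, and replicates 1 and 4 did so by the most. The log2 fold change was 1.62 ± 0.43 (adjusted p = 0.0176, edgeR), with 1.23 to 1.86 over the fits without 1 library, all of which kept the call, and an adjusted p of 0.0714 with all genes kept whatever their counts. Ago2-IP values were 125, 116, 129 and 124 in control and 117, 122, 114 and 105.9 with miR-106b. A share of 16.1% of its exon bases is also covered by another gene.

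Dkk3 (chr7:112116019-112159057, strand -) was even among controls, at 306, 304, 318 and 302 CPM, and uneven with miR-106b, at 462, 162, 211 and 227. In all but replicate 1 the level lay below the controls, and there it lay above them, and the log2 fold change of -0.21 ± 0.27 did not pass (adjusted p = 0.564, edgeR). Leaving out miR-106b replicate 1 gave a log2 fold change of -0.55 and an adjusted p of 0.00155, and edgeR's likelihood ratio test on all 8 libraries gave -0.49 and 0.0145. Its Ago2-IP levels were 23.6, 23.7, 28.8 and 32.8 and 32.9, 46.7, 30.3 and 21.8. In the fit of the control libraries, which scaled both RNA kinds jointly, Ago2-IP RNA was 9.26-fold below polyA RNA, which is not the fold between these CPM. Dkk2, an Lrp5/6 antagonist at 2.62 to 4.71 CPM in control polyA RNA, did not pass in polyA RNA (adjusted p = 0.383, edgeR).

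The Axin genes moved in opposite directions. Axin1 (chr17:26138688-26195811, strand +), the scaffold of the destruction complex, had 77.5, 83.3, 81.5 and 83.4 CPM in control and 67.3, 47.0, 61.4 and 57.8 in miR-106b polyA RNA, without overlap. It fell 1.39-fold (log2 fold change -0.48 ± 0.12, adjusted p = 0.00695, edgeR), and the adjusted p was 0.0572 and 0.0525 without replicates 2 and 3 of control. Axin2 (chr11:108920349-108950783, strand +), a feedback gene that beta-catenin induces in many tissues, had 10.4, 9.42, 8.83 and 14.3 and 19.7, 12.8, 12.4 and 18.5 CPM. These groups overlapped (exact permutation p = 0.0857), and the log2 fold change of 0.57 ± 0.21 was just inside the threshold (adjusted p = 0.0497, edgeR). The adjusted p was 0.0635, 0.0845 and 0.085 without replicates 1, 2 and 3 of control and 0.0677 and 0.123 without replicates 1 and 4 of miR-106b, and 0.0531 when scaled by library size only. Ago2-IP values were 39.8, 34.9, 40.6 and 35.8 (control) and 40.3, 41.4, 42.9 and 38.7 (miR-106b) for Axin1. For Axin2 they were 8.54, 12.3, 11.3 and 14.0 and 9.30, 15.5, 12.2 and 10.2.

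None of the 4 TCF/LEF genes passed in polyA RNA by the quasi-likelihood test. Lef1 (chr3:131110471-131224356, strand +), which carries beta-catenin to DNA and shares 13.8% of its exon bases with another gene, was at 7.89, 12.5, 9.43 and 8.73 CPM in control and 8.27, 4.81, 7.44 and 3.70 with miR-106b (log2 fold change -0.64 ± 0.26, adjusted p = 0.0629, edgeR; 0.0374 without replicate 1 of miR-106b and 0.024 by edgeR's likelihood ratio test). In Ago2-IP RNA it was near the limit of counting, at 0, 0.558, 0.269 and 0.874 and 1.16, 0.875, 0.967 and 2.04 CPM. Tcf7l1 (chr6:72626378-72789254, strand -), mainly a repressor and the most abundant of these factors, was at 107, 109.9, 102 and 117 and 150.2, 105, 83.4 and 144 CPM in polyA RNA. Its log2 fold change was 0.14 ± 0.16 (adjusted p = 0.509, edgeR), and its Ago2-IP values were 69.4, 57.5, 68.3 and 69.2 and 75.6, 76.7, 68.0 and 61.4. Tcf7 and Tcf7l2 had log2 fold changes of 0.01 and 0.20 (adjusted p = 0.991 and 0.238, edgeR).

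**Figure D4:**
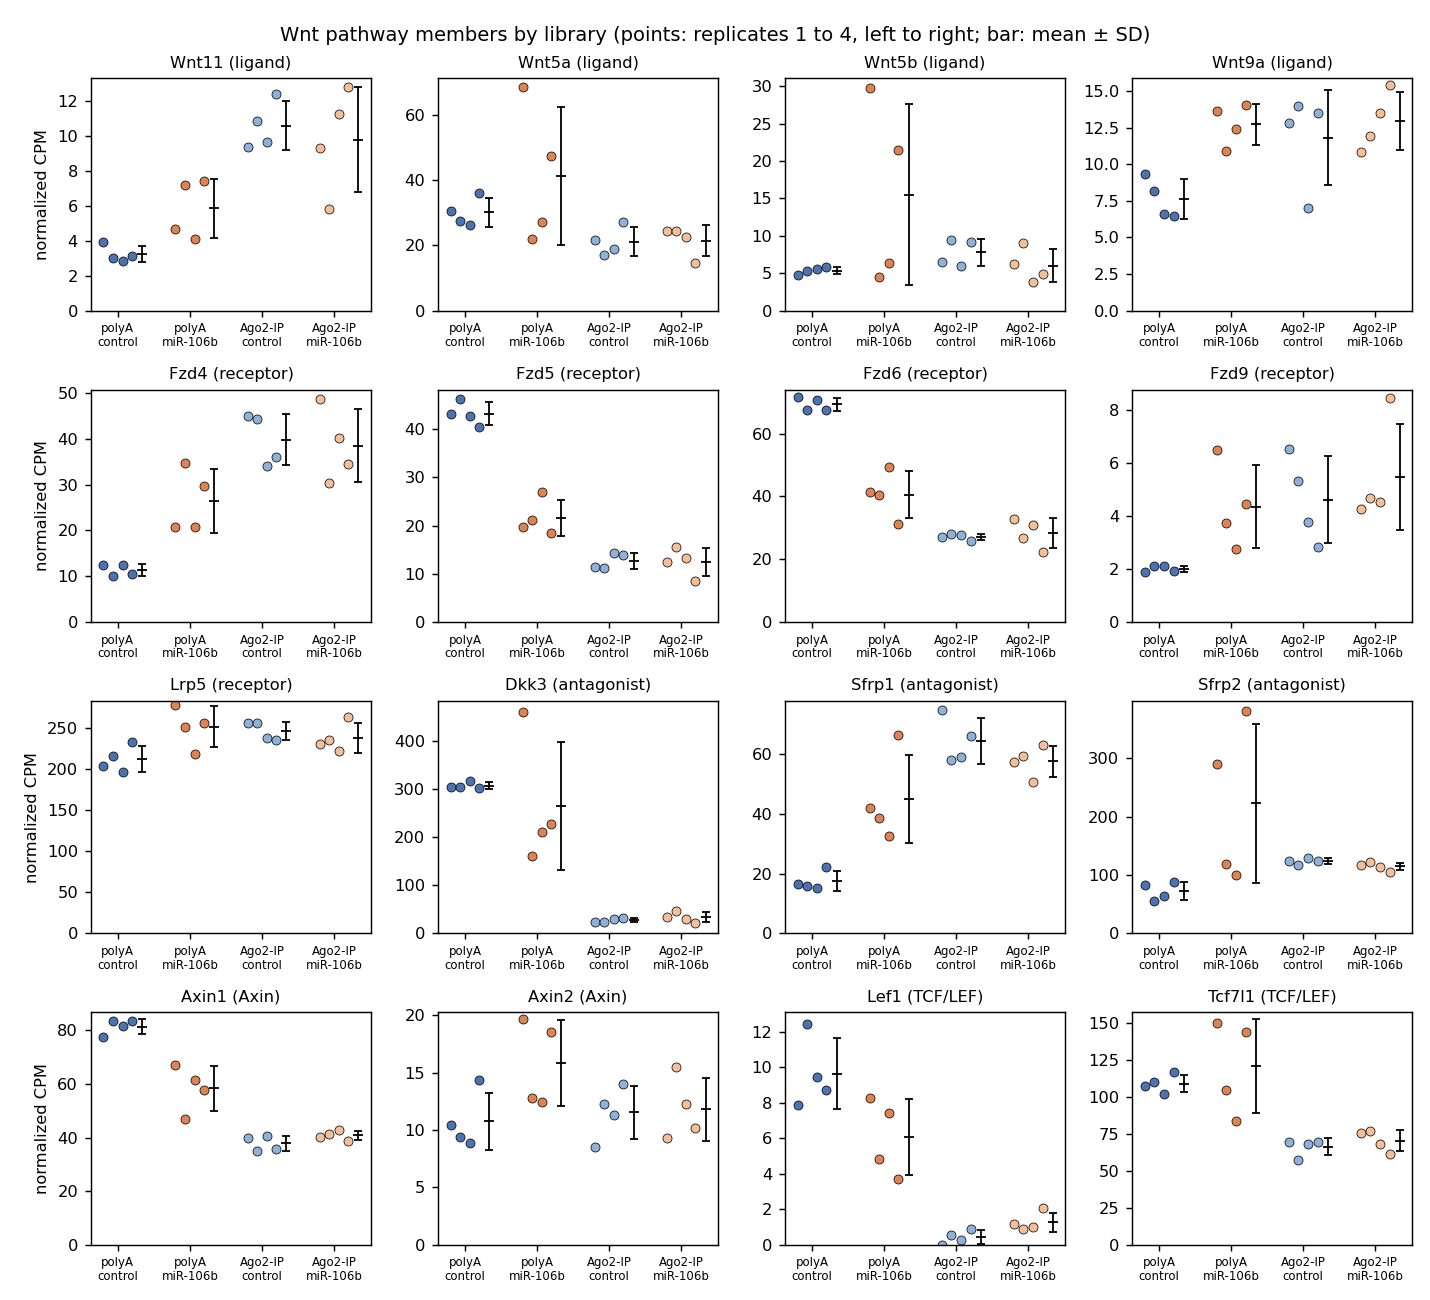
Normalized CPM of 16 named members in each library; points are replicates 1 to 4 from left to right in the 4 groups, and bars give the mean and SD (n = 4). Fzd5, Fzd6 and Axin1 are lower and Fzd4, Fzd9, Sfrp1 and Sfrp2 higher in every miR-106b polyA library than in any control, while the Ago2-IP groups overlap for 15 of the 16, all but Lef1.

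In Ago2-IP RNA, no member and no gene at all was called between miR-106b and control. The count was 0 of 31 members and 0 of 14897 genes (0%) by edgeR's quasi-likelihood test, with 1 member (Dkk2) and 827 genes (5.55%) at an unadjusted p under 0.05. DESeq2's Wald test and edgeR's likelihood ratio test also called 0 members. One member, Lef1, had groups that did not overlap, against 3.26% of all genes, and its adjusted p was 0.898. Fitted log2 fold changes had a median of -0.04 over the members and 0.00 over all genes.

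The Ago2:polyA ratio was then compared between transfections, as the log2 fold change in Ago2-IP RNA minus that in polyA RNA. The ratio rose for Fzd5, Fzd6, Axin1 and Lef1 and fell for Wnt5b, Wnt11, Fzd4, Fzd8, Lrp5, Sfrp1 and Sfrp2, 11 of 31 members (edgeR's quasi-likelihood test of the interaction, adjusted over all genes). The background was 27.3% called, 7.62% higher and 19.7% lower, against 35.5% of members, 12.9% higher and 22.6% lower. The members' counts hold Wnt5b, whose fall was known beforehand, and Lef1, which passed the filter through polyA RNA alone, so nothing is read from the difference of these shares. The median log2 change was -0.47 over the members and -0.07 over all genes. With libraries scaled by size alone or within each RNA kind, 4 members rose and 4 fell, and the share of higher calls among all genes called went from 27.9% to 46.3% or 45%. Without polyA control replicate 2 or 3, 2 members rose and 5 fell, but no share of all genes in those fits is given, so this is not read further. Wnt2b, Wnt9a, Fzd9, Lrp6, Dkk2, Dkk3, Axin2 and Tcf7l2, not called with all libraries, each passed in some fit without 1 library. The ratio contains the polyA libraries of the comparison above, so that its values for the members are no independent reading of their polyA changes.

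Wnt5b, for which the fall of the ratio was already known when the genes were chosen, changed by -2.06 ± 0.67 on the log2 scale (SE), which is given as a description with no test. In the separate fits, its polyA log2 fold change was 1.55 and its Ago2-IP log2 fold change -0.37. Among the inhibitors, the ratio of Sfrp2 fell by 1.87 (adjusted p = 0.0131, edgeR), with 1.62 in polyA and -0.11 in Ago2-IP RNA, and that of Sfrp1 by 1.66 (adjusted p = 2.52e-05), with 1.36 and -0.16. Wnt11 fell by 1.09 (adjusted p = 0.0276, edgeR; 0.0549 and 0.0551 without replicates 2 and 3 of polyA control, 0.101 and 0.0638 without replicates 2 and 4 of polyA miR-106b, 0.0572 without replicate 4 of Ago2-IP control and 0.0589 without replicate 2 of Ago2-IP miR-106b; 0.0546 scaled by library size, 0.0511 scaled within each RNA kind and 0.0972 with no filter on low counts).

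For the receptors, the ratio of Fzd4 changed by -1.42 ± 0.25 (adjusted p = 0.000131, edgeR), that of Fzd5 by 0.81 ± 0.23 (adjusted p = 0.0107) and that of Fzd6 by 0.67 ± 0.18 (adjusted p = 0.00777). These 3 kept their calls without any 1 of the 16 libraries. Lrp5 changed by -0.44 ± 0.13 (adjusted p = 0.014, edgeR; 0.054 without replicate 2 of polyA miR-106b), and its adjusted p was 0.0956 scaled by library size, 0.0838 scaled within each RNA kind and 0.212 with no filter on low counts, where the change was -0.29. Fzd8, a frizzled with 1 match to bases 2 to 8 of the seed, was named after its values were seen. Its ratio changed by -0.91 ± 0.29 (adjusted p = 0.0215, edgeR; 0.0513 without replicate 1 of polyA miR-106b and 0.0539 without replicate 1 of Ago2-IP control; 0.0545 scaled by library size and 0.0513 scaled within each RNA kind).

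The ratio of Axin1 rose by 0.45 ± 0.15 (adjusted p = 0.0303, edgeR; 0.0578 and 0.0536 without replicates 2 and 3 of polyA control, 0.0622 and 0.0611 without replicates 2 and 4 of Ago2-IP control and 0.0599 without replicate 3 of Ago2-IP miR-106b). Lef1 rose by 1.95 ± 0.70, with an adjusted p of 0.0398 by edgeR that became 0.0701 and 0.0528 without replicates 2 and 3 of polyA control, 0.0606 without replicate 4 of polyA miR-106b, 0.0865, 0.0545 and 0.0816 without replicates 1, 2 and 3 of Ago2-IP control and 0.0545 and 0.141 without replicates 1 and 4 of Ago2-IP miR-106b, and 0.0594 with the replicate block. Its level in Ago2-IP control was at most 0.874 CPM, near the limit of counting, and it passed the filter through the polyA groups, where it is high, so neither the size nor the call of this change is read further. The ratio of Wnt9a had an adjusted p of 0.0635, and 0.0471 without replicate 1 of polyA control, 0.013 without replicate 3 of Ago2-IP control and 0.045 without replicate 4 of Ago2-IP miR-106b, and 0.0133 by edgeR's likelihood ratio test.

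Ago2-IP and polyA RNA differed for most members already in control cells. By edgeR's quasi-likelihood test, 24 of 31 were called, 9 higher and 15 lower in Ago2-IP (background 73.3% called, 35.4% higher and 37.9% lower). Members with more Ago2-IP than polyA RNA included Sfrp1, with a log2 difference of 2.17 ± 0.12, Fzd4 (2.09 ± 0.13), Wnt11 (1.99 ± 0.22), Fzd9 (1.44 ± 0.32), Sfrp2 (1.06 ± 0.11), Wnt9a (0.90 ± 0.21) and Lrp5 (0.49 ± 0.06). The 9 also hold Wnt5b, named for a ratio that these libraries enter (0.83 ± 0.22, with no test), and Wnt10b, which was under 1 CPM in every polyA control library and passed the filter through Ago2-IP RNA, so the count of higher members is not read further. Those with less included Dkk3 (-3.21 ± 0.09), Fzd2 (-2.28 ± 0.09), Fzd5 (-1.48 ± 0.12), Fzd6 (-1.08 ± 0.09) and Axin1 (-0.83 ± 0.09). The 15 also hold Wnt7b, Fzd3, Dkk2 and Lef1, which had means under 1 CPM in Ago2-IP control and passed the filter through other groups. They hold Wnt2 as well, with a mean of 0.942 CPM in Ago2-IP control. So no fold is given for any of these, and the count of lower members is not read further. With only genes of at least 10 counts in every library kept, 17 members were called, 8 higher and 9 lower. That filter keeps another set of genes, whose share called is not given, so these counts are not read against the background above. This comparison shares the polyA control libraries with the polyA comparison of transfections, so the side by side values are given with no test of their likeness. With libraries scaled by size alone, the median over all genes was -0.35 rather than -0.06 and the members called were 9 higher and 16 lower, with the share of higher calls among all genes called at 37.6% rather than 48.3%.

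With miR-106b, 14 of 31 members differed between the RNA kinds, 3 higher (Wnt11, Fzd4 and Sfrp1) and 11 lower in Ago2-IP RNA, against a background of 38.5% called, 18.6% higher and 19.8% lower. The share of higher calls among all genes called was 48.5%, and 34% scaled by library size. The 11 hold Lef1 and Wnt2, which stood near the limit of counting in Ago2-IP RNA (means of 1.26 and 0.800 CPM), and the count of lower members is not read further. Sfrp1 had a log2 difference of 0.53 ± 0.18 and Fzd4 of 0.70 ± 0.20. The call of Fzd4 held without any 1 library. That of Sfrp1 was lost in 6 of 8 such fits (adjusted p up to 0.0902, edgeR) and that of Wnt11 in 4 of 8 (up to 0.0998). For Dkk3 it was -2.86 ± 0.40 and for Fzd2 -2.30 ± 0.45. Without Ago2-IP miR-106b replicate 4 the count was 9, 1 higher and 8 lower, with no share of all genes in that fit beside it, so it is not read further.

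Beyond the members, 130 further gene names of the pathway were followed in 7 lists, of which 113 were tested. Among those not tested, Ccn4 and Ccn5 are newer names of Wisp1 and Wisp2, which the lists also hold. In polyA RNA 20 rose, 36 fell and 57 did not pass (median log2 fold change -0.09), beside 19% and 21.5% of all genes. Of the genes named below, Tmed2, Ryk, Lgr6, Sox17 and Fgf9 had polyA libraries that overlapped between the transfections. The adjusted p was 0.0396 for Lgr6 and 0.0406 for Dvl3 (edgeR). Leaving out polyA control replicate 2 lowered the calls from 56 to 32, control replicate 3 to 33 and control replicate 1 to 34. The share of all genes called in those fits is not given, so the drop is not read as one of the lists. The destruction complex and signal relay list had 2 risers and 10 fallers of 24. Its fallers included Usp34, a deubiquitinase of Axin, from 44.6 ± 7.04 to 23.5 ± 7.88 CPM, and the casein kinase Csnk1g1, from 44.5 ± 5.11 to 27.3 ± 7.54. The risers were Apc2, at 13.0 ± 3.26 and 28.0 ± 6.76 CPM, and Dvl3, which relays the frizzled signal, at 104 ± 3.43 and 127 ± 13.1.

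Of the reported beta-catenin target genes, 3 of 18 tested rose, 9 fell and 6 did not pass (median log2 fold change -0.42), beside 19% and 21.5% of all genes. The AP-1 subunit Fosl1 fell from 148 ± 13.1 to 35.6 ± 30.7 CPM (log2 fold change -2.04 ± 0.57) and Birc5, which is also a mitotic gene, from 45.5 ± 6.14 to 12.9 ± 8.43 (-1.82 ± 0.37). Vegfa, an angiogenic growth factor, rose from 244 ± 18.7 to 425 ± 84.5 CPM (0.80 ± 0.14) and Fgf9 from 4.96 ± 1.57 to 8.99 ± 2.53 (0.86 ± 0.29). These genes have many inputs besides beta-catenin, and the list carries no reading of pathway activity.

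Among co-receptors and planar polarity genes, 7 of 21 rose and 6 fell, beside 19% and 21.5% of all genes. Ror1, a receptor for Wnt5a, rose from 3.53 ± 0.568 to 8.36 ± 3.19 CPM and the formin Daam2 from 11.7 ± 1.2 to 25.2 ± 5.80. The GTPase Rac1 fell from 371 ± 60.0 to 228 ± 36.4 and the receptor Ryk from 181 ± 15.2 to 123 ± 28.2. Of 15 further antagonists 4 rose, among them Igfbp4, from 69.8 ± 10.7 to 154 ± 40.2, and Frzb, an Sfrp relative, from 4.02 ± 0.233 to 8.81 ± 2.37. The 2 that fell were Tpbg, from 68.1 ± 3.58 to 31.6 ± 13.9, and the chromatin remodeller Chd8, from 122 ± 3.58 to 97.4 ± 8.08.

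In the last 3 lists, too, the share of all genes was 19% higher and 21.5% lower, and no list was refitted on its own without 1 library. For Wnt secretion 0 of 9 rose and 2 fell, namely the syndecan Sdc1, from 309.8 ± 11.5 to 193 ± 50.9 CPM, and the cargo receptor Tmed2, from 77.2 ± 10 to 54.8 ± 9.68. Of 6 R-spondin and receptor turnover genes, Lgr6 rose from 40.4 ± 4.89 to 54.9 ± 11.4 and 2 fell, among them Znrf3, a ligase that removes frizzleds, from 24.2 ± 1.49 to 17.5 ± 1.85. Of 20 nuclear cofactors 3 rose and 5 fell, with Sox17 at 7.58 ± 2.49 and 16.7 ± 6.80 CPM and Pygo1 at 15.3 ± 3.17 and 23.3 ± 2.58 among the risers, and Cdc73 at 24.4 ± 1.34 and 15.9 ± 1.82 and Nlk at 36.4 ± 3.41 and 26.8 ± 2.93 among the fallers. In Ago2-IP RNA 0 of the 113 genes were called by edgeR's quasi-likelihood test, and in the ratio 11 rose and 25 fell, beside 7.62% and 19.7% of all genes, a background that moves with the scaling of libraries as given for the members; the lists were not refitted under it.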

How the data were processed

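RNA of 16 libraries was analysed, 4 per group, from mouse cultures labelled as JG cells. As the authors describe, libraries were not strand-specific and were read as single ends of 50 bases, ribosomal reads were removed, reads were aligned to GRCm38 with Tophat2 and counted per gene with HTSeq version 0.9.1, and groups were compared with edgeR version 1.2.4. The Tophat2 version is 2.1.1 in the study's methods and 2.0.10 in the submitters' processing notes. The deposited values are whole read counts per gene, not normalized and not filtered, in 1 table of 46078 genes. Libraries were assigned to groups by their labels. Each library held 2579086 to 9459585 counts, and floors and counts cover counting error only.

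The filter kept genes at 1 CPM or more in 3 or more replicates of some group, which left 14897. Counts were tested with edgeR 4.0.16 in R 4.3.3 (TMM scaling, glmQLFit with robust estimates, quasi-likelihood F test, two-sided, Benjamini-Hochberg over all genes kept, threshold 0.05), on the 8 libraries compared, or on all 16 for the ratio, tested as an interaction term. Single members were also compared by an exact permutation test of log2(CPM + 1), two-sided, over 70 relabellings with 0.0286 as the smallest p. Normalized CPM used TMM within each RNA kind; marker sums used library size. Exon lengths, strands and overlaps came from GENCODE M21, in which all 45 IDs were found, 34 with the same coordinates as the count table; gene coordinates are those of the table. The fits were tested on simulated data.

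The members and all gene and marker lists were chosen with earlier results of these data known. The kidney epithelium list is given without 1 gene that is not reported here. That list and the alternatives for Wnt2b, Wnt7b, Fzd2, Fzd8, Lrp6 and Sfrp4 were set after seeing the data. Members given with every library were Wnt5b, per role up to 4 called in any of the polyA, Ago2-IP and ratio comparisons with the smallest adjusted p in polyA RNA, and the highest by CPM of each role, besides Sfrp4, Wnt2b, Wnt7b and Fzd2, of which library values were given after they were seen; other pathway genes named were up to 2 risers and 2 fallers per list with the largest fold change at a mean of at least 5 CPM. Alternatives were other scaling (DESeq2 1.42.0 size factors, library size, TMM within RNA kind), other filters, edgeR's likelihood ratio test, the Wald test of DESeq2, all 16 libraries in a single fit, a replicate block and leaving out each library.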

Additional observations from a re-analysis of the deposited data

Results flagged for a closer look

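In 124 groups of 4 libraries (31 members in 4 groups), 6 held a library farther from the others than the 95% limit of Dixon's test allows, where about 6.2 would come by chance. Wnt9a was at 6.99 CPM in Ago2-IP control replicate 3, with the others at 12.8 to 14.0, and Tcf7l1 at 57.5 CPM in Ago2-IP control replicate 2, with the others at 68.3 to 69.4. Fzd9 was at 8.44 CPM in Ago2-IP miR-106b replicate 4, against 4.26 to 4.67. Tcf7 was at 4.81 CPM in polyA miR-106b replicate 4, against 3.20 to 3.35. In Ago2-IP control replicate 4, Wnt2 was at 0.437 CPM, against 1.07 to 1.14, and Wnt7b at 0.437 CPM, against 0 in the others; both are near the limit of counting. The cause of these values was not tested.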

How the results depend on the processing

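No call of a member chosen by the rule changed direction in polyA RNA, in the ratio or between RNA kinds in control under any alternative run. Differences without a call did cross 0: that of Fzd2 in polyA RNA, named after its values were seen, was 0.0121 with DESeq2 size factors, 0.00973 by the Wald test of DESeq2, 0.088 when 1 fit held all 16 libraries and -0.45 to 0.20 without 1 library, and without 1 library Wnt4, Fzd1 and Tcf7 in polyA RNA, 13 members in Ago2-IP RNA, Fzd1, Fzd2 and Fzd7 in the ratio, Wnt2b and Tcf7 between RNA kinds in control and Fzd3 and Dkk2 between them with miR-106b also crossed 0. Leaving out 1 library gave 7 to 14 members called in polyA RNA, 0 in Ago2-IP RNA, 7 to 13 in the ratio, 24 to 25 between RNA kinds in control and 9 to 16 with miR-106b. No share of all genes called is set beside these counts or those of the alternatives that follow. They are therefore not read as results about the members. The lowest polyA and ratio counts, both 7, came without polyA control replicate 2 or 3, and 9 came without Ago2-IP miR-106b replicate 4; the cause was not tested. Under the other alternatives the total counts stayed within 1.5 times the values reported, but the ratio's fallers went from 7 to 4 when scaled by library size or within RNA kind, the polyA fallers from 3 to 7 by edgeR's likelihood ratio test, and members lower in Ago2-IP than polyA control from 15 to 9 with at least 10 counts in every library. Libraries with the same replicate number did not deviate together (correlations of deviations from -0.386 to 0.218), and RNA kinds came from separate cultures; a replicate block gave 9 members in polyA RNA, 0 in Ago2-IP RNA, 10 in the ratio, 24 in control and 14 with miR-106b. Scaling by library size moved the share of higher calls over all genes from 27.9% to 46.3% in the ratio, from 48.3% to 37.6% between RNA kinds in control and from 48.5% to 34% with miR-106b; scaling within RNA kind gave 45% in the ratio. Low ligands, at a few CPM, are limited by depth.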
